A study of Rattus norvegicus with 16 samples.

Results

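MicroRNAs of the hairpins rno-mir-216a, rno-mir-217 and rno-mir-375 were examined in small RNA libraries of rat tissues, since mir-217-5p met the study's rule for spleen-specific expression although it is known from the acinar cells of the pancreas. The hairpins were found by their names in the read position files and their reads were summed per arm. They are 3 of 392 hairpins, with 6 arms of the 712 that held a read in any library. The hairpins were chosen by earlier results from these libraries, namely the level of mir-217-5p in spleen, so its spleen values are given as a description without a test. The question was whether mir-216a and mir-375 followed mir-217-5p in the spleen libraries of both strains.

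The libraries came from adult male rats of the inbred strains BN-Lx (brown Norway with the polydactyly-luxate syndrome) and SHR (spontaneously hypertensive rat), none of them treated. From 1 rat per strain, the spleen, whole brain, kidney, liver, testis and heart gave 12 libraries (the six-tissue set), and 4 further livers brought the livers to 3 per strain. A strain therefore has no replicate within a tissue except liver, and the tissues of a strain share 1 animal. No pancreas is among these libraries. The paper states more PCR cycles for both testis libraries and an SHR liver library than for the rest. The libraries held 26880 and 29131 reads in testis, between 403453 and 1064894 in each other library of the six-tissue set and between 1167607 and 3229461 in the further livers. The hairpins mir-223, mir-142, mir-150 and mir-146a, which are abundant in blood and immune cells, summed to levels of 186528 and 190626 (RPM, the reads of an item per 1000000 hairpin reads of its library) in the BN-Lx and SHR spleens and to between 6847 and 23446 RPM in the other 10 libraries. Most of the spleen sums came from mir-223 and mir-150. The hairpin mir-146a alone did not set spleen apart, at 1089 RPM in the BN-Lx spleen and 2032 RPM in the SHR liver. In whole tissue, fewer cells of a type and less RNA per cell cannot be told apart.

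A microRNA is cut from a hairpin precursor, and either side of the hairpin, its 5p or its 3p arm, can yield the mature RNA. Bases 2 to 8 of the mature RNA, the seed, pair with target messages. The hairpins mir-216b, mir-216a and mir-217 lie in 1 genomic cluster and are known as microRNAs of the exocrine pancreas, whose acinar cells make digestive enzymes. The hairpin mir-375 is encoded elsewhere. It is known for its abundance in the hormone-secreting cells of the pancreatic islets and is also made in pituitary and in several epithelia.

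The mature sequences below are those that the counts refer to, with the seed in capitals. The leading arms of the cluster are shown to compare their seeds. On GRCr8, mir-216b-5p lies at chr14:106714045-106714066, mir-216a-5p at chr14:106725095-106725116 and mir-217-5p at chr14:106732516-106732537, all on the plus strand. The mature mir-375-3p lies at chr9:83906591-83906612 on the minus strand.
rno-miR-217-5p: uACUGCAUcaggaacugacugg
rno-miR-216a-5p: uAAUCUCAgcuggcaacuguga
rno-miR-216a-3p: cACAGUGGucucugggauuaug
rno-miR-216b-5p: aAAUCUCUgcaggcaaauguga
rno-miR-375-3p: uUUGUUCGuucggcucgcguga
The sequences and positions are from RefSeq. All 6 member arms were matched in its rat table, and no other mature sequence there has the seed of any of them. The sequences of mir-216a-5p and mir-216b-5p are equal at 18 of 22 positions and at 6 of the 7 seed positions, so they differ enough for perfectly matching reads to be told apart. The hairpins of mir-216b and mir-216a lie 10949 bases apart, and those of mir-216a and mir-217 lie 7302 bases apart.

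In spleen, mir-217-5p had 101 reads in BN-Lx (137 RPM, exact 95% Poisson interval 111 to 166) and 135 reads in SHR (272 RPM, 228 to 322). Intervals here cover counting error only, since PCR copies were not marked. In brain it had 17 reads in BN-Lx (15.96 RPM, 9.30 to 25.6) and 0 in SHR, and in kidney 0 in BN-Lx and 3 in SHR (5.02 RPM). Both livers, hearts and testes of the six-tissue set had 0 reads. Both spleens thus lay above all other libraries of the set, and the BN-Lx brain was the next highest. Of 256 reads of the arm over the 12 libraries, 236 were in spleen (92.2%).

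A read count of 0 was taken to allow a level of up to 3 reads. Bounds from this limit, here and below, take the other library's count as read and leave out its counting error. Against this limit, mir-217-5p in the BN-Lx spleen was at least 21.4-fold higher than in the BN-Lx liver, at least 24.8-fold higher than in kidney and at least 18.4-fold higher than in heart. In the shallow testis, 3 reads correspond to 112 RPM in BN-Lx and 103 RPM in SHR. Against these, the spleen was only at least 1.23-fold higher in BN-Lx and at least 2.64-fold higher in SHR. With counting error the BN-Lx spleen level could be as low as 111 RPM, so it was not told apart from testis. Against brain, the BN-Lx ratio was 8.57 (exact 95% interval 5.10 to 15.3). The other arm, mir-217-3p, had 1 read in the BN-Lx spleen, 3 in the SHR spleen and 1 in the SHR brain. The 5p arm took 98.3% of the 240 spleen reads of the hairpin (exact Clopper-Pearson 95% interval 95.8 to 99.5).

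The neighbour mir-216a was found in the same tissues but with few reads. Its 5p arm had 3 reads in the BN-Lx spleen (4.07 RPM), 4 in the SHR spleen (8.05 RPM) and 1 in the BN-Lx brain (0.939 RPM). Its 3p arm had 1 read in the BN-Lx spleen, 6 in the SHR spleen (12.1 RPM) and 2 in the BN-Lx brain. The other 9 libraries of the six-tissue set and the further livers had 0 reads of either arm. With both arms summed, 14 of the 17 reads of the hairpin were in spleen, which had 4 reads in BN-Lx (5.42 RPM, 1.48 to 13.9) and 10 in SHR (20.1 RPM, 9.65 to 37.0). The BN-Lx spleen did not differ from the BN-Lx brain beyond counting error, at a ratio of 1.92 (0.326 to 13.1). The SHR spleen was at least 5.77-fold higher than the SHR brain. Unlike mir-217, mir-216a had as many 5p as 3p reads in spleen, with 7 each (50%, 23.0 to 77.0).

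The cluster hairpin mir-216b, which the files list under its human name, was more abundant than mir-216a. Its 5p arm had 11 reads in the BN-Lx spleen (14.9 RPM), 47 in the SHR spleen (94.6 RPM), 18 in the BN-Lx brain (16.9 RPM) and 2 in the SHR brain (2.32 RPM), and 0 in the remaining 8 libraries of the set. All the cluster members were therefore read in spleen and brain, with 3 mir-217-5p reads in the SHR kidney as the exception within the six-tissue set.

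The arm mir-375-3p was spread more widely. It had 42 reads in the BN-Lx spleen (56.9 RPM, 41.0 to 76.9) and 150 in the SHR spleen (302 RPM, 255 to 354). Kidney had 32 reads in BN-Lx (58.8 RPM) and 21 in SHR (35.1 RPM), and liver had 16 in BN-Lx (34.2 RPM) and 22 in SHR (43.9 RPM). Brain was lower, with 6 reads in BN-Lx (5.63 RPM) and 12 in SHR (13.9 RPM), and both hearts had 0. In order of level within the six-tissue set, the SHR testis came first with 18 reads (618 RPM, 366 to 977), and the SHR spleen came next. The BN-Lx kidney, the BN-Lx spleen, the SHR liver, the SHR kidney and the BN-Lx liver followed with overlapping intervals. The BN-Lx testis had 0 reads of 26880, which allows up to 112 RPM. Spleen thus held 192 of the 319 reads of the six-tissue set (60.2%), but only the SHR spleen stood above the kidneys and livers of that set. The further livers, at 6.00 to 136 RPM, are described with the other livers. The arm mir-375-5p had 1 read in the BN-Lx spleen, 2 in the BN-Lx testis and 1 in the SHR kidney.

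**Figure D1:**
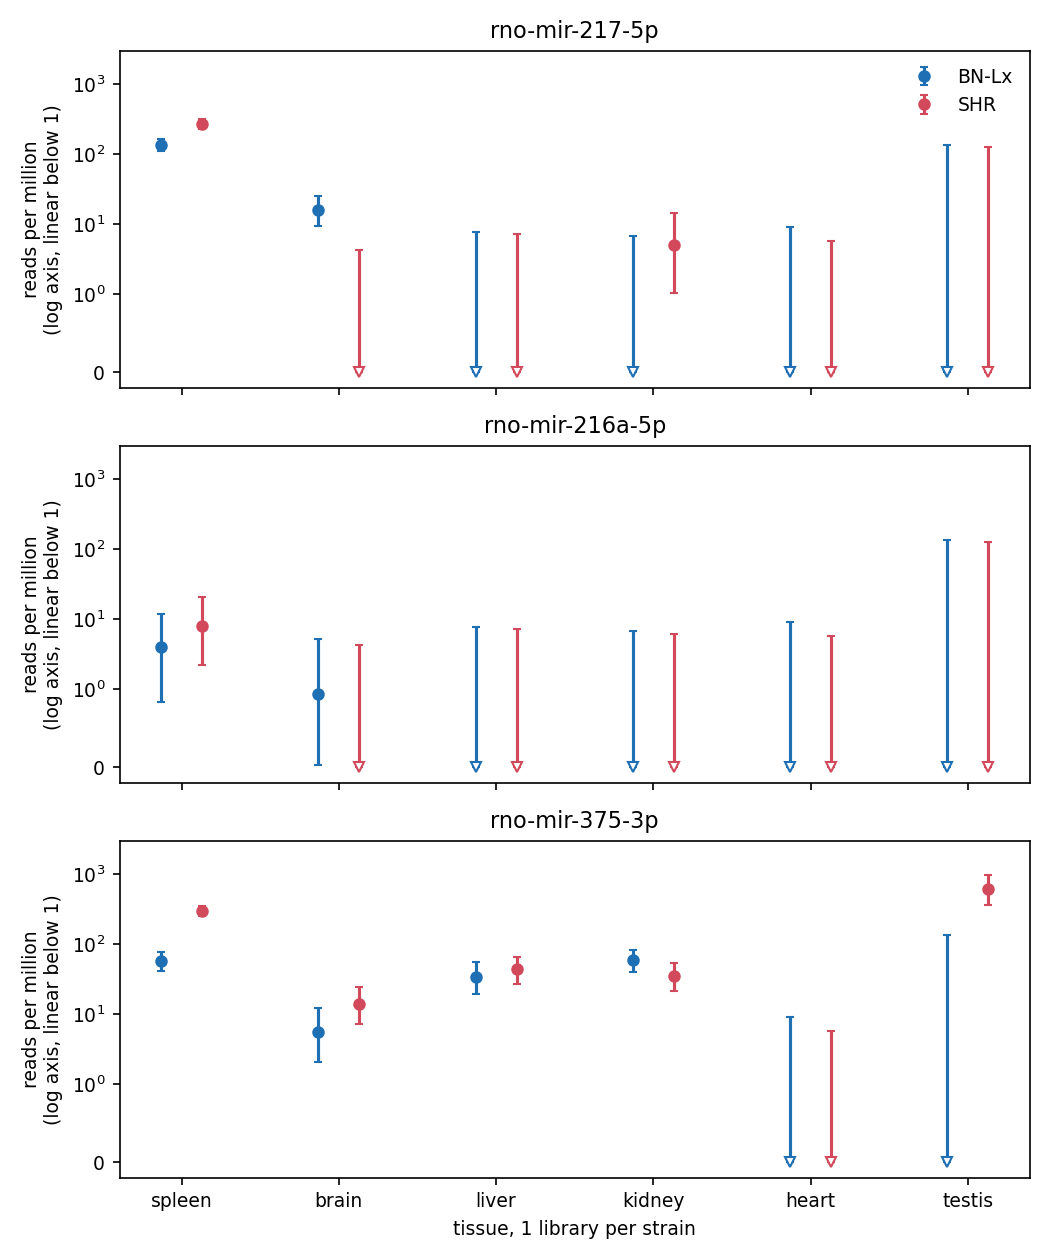
RPM (log axis, linear below 1) of mir-217-5p, mir-216a-5p and mir-375-3p in the 6 tissues, with 1 library per strain and exact 95% Poisson intervals, and with open triangles for libraries with 0 reads. Both spleens are highest for mir-217-5p at 137 and 272 RPM, mir-216a-5p reaches 4.07 and 8.05 RPM there, and mir-375-3p is also read in liver, kidney, brain and the SHR testis.

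Spleen was compared with the other tissues in an edgeR quasi-likelihood fit of 687 arms over the 12 libraries, in which the strains stand as replicates of a tissue. Of the arms tested, 85 (12.4%) were higher in spleen than the mean of the 5 other tissues and 47 were lower, at an adjusted p under 0.05 (Benjamini-Hochberg over all arms). The split was 57 higher and 57 lower with total reads, 59 and 64 with the outlier-corrected mean of the study, and 63 and 62 with RLE factors, which shifted the median log2 difference of all arms from -0.30 to -0.44, -0.42 and -0.36, respectively. The difference for mir-375-3p was a log2 value of 3.61 (SE 0.67, adjusted p = 2.99e-05, edgeR), and it was called under each of these scalings and by DESeq2 (adjusted p = 0.0151). Without the SHR spleen the log2 difference was 2.99 and no longer passed (adjusted p = 0.130), and without the SHR testis it was 5.50. For mir-216a, neither arm passed the test. The log2 difference was 4.76 for the 5p arm (SE 1.97, adjusted p = 0.0879, edgeR) and 4.56 for the 3p arm (SE 2.01, adjusted p = 0.113, edgeR). In BN-Lx the 3p arm had fewer reads per library total in spleen than in brain. These fitted values rest on libraries with 0 reads and are not bounds. Each SE here and below was back-calculated from the log2 difference and the F statistic of its test, and is rough at low counts. The arm mir-375-5p had a log2 difference of 0.62 (adjusted p = 0.954, edgeR).

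The mean over the other tissues hides where mir-375-3p was low. In edgeR contrasts with each tissue, it was higher in spleen than in brain by a log2 value of 4.78 (SE 0.98, adjusted p = 7.01e-05), and it was higher than in heart (adjusted p = 2.74e-05), where the limit of 3 reads gave at least 7.65-fold in BN-Lx and at least 63.4-fold in SHR. Liver, kidney and testis did not pass this test. The log2 difference was 1.48 against liver (SE 0.88, adjusted p = 0.383, edgeR) and 1.63 against kidney (SE 0.90, adjusted p = 0.249, edgeR). Without the BN-Lx kidney, the kidney difference was 3.20 and passed (adjusted p = 0.0295, edgeR). Against testis it was 0.37 (SE 0.90, adjusted p = 1, edgeR) and turned negative with RLE factors (-0.08), total reads (-0.72) and the outlier-corrected mean (-0.63), and also without the BN-Lx testis (-0.60) or the SHR spleen (-0.30). Without the SHR testis, which holds all 18 testis reads, it was 9.39 and did not pass (adjusted p = 0.112, edgeR). Among all arms, 17 (2.47%) were higher in spleen than in each of the 5 other tissues. The arms of mir-216a and mir-375 were not among them.

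By the study's rule, an arm is specific to a tissue when its reads, divided by the outlier-corrected mean (the mean over known arms without the 3 highest), are at least 5-fold above every other tissue in each strain. For spleen, 13 of 698 arms met it (1.86%). The values that chose mir-217-5p were 9.91 times the next tissue, brain, in BN-Lx and 67.7 times the next tissue, kidney, in SHR. The arm mir-216a-5p lay just inside, at 5.01 times brain in BN-Lx, from 3 reads against 1, and with no other tissue read in SHR. The arm mir-216a-3p lay outside, at 0.834 times brain in BN-Lx. The arm mir-375-3p was outside in both strains, at 1.07 times kidney in BN-Lx and 0.532 times testis in SHR. The arm mir-217-3p also met the rule, from 1 read in the BN-Lx and 3 in the SHR spleen, and mir-216b-3p met it from 1 and 6. With total reads in place of the outlier-corrected mean mir-216a-5p left the list. With at least 10 reads required in each strain only mir-217-5p of the member arms stayed, and at 10-fold it fell outside.

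Both arms with enough reads for a strain comparison were higher in the SHR than in the BN-Lx spleen, with 1 library and 1 rat per strain and therefore no test. The SHR to BN-Lx ratio of reads per library total was 1.98 for mir-217-5p (exact 95% interval 1.52 to 2.59) and 5.30 for mir-375-3p (3.74 to 7.66). With TMM-scaled totals these ratios were 1.54 and 4.10. The ratio of reads per library total was 3.71 for the summed mir-216a reads (1.07 to 16.2) and 6.34 for mir-216b-5p (3.24 to 13.6). The intervals of mir-217-5p and mir-375-3p did not overlap, so the reads did not keep 1 ratio between the spleens. Of the hairpin reads of mir-375 and mir-217 together, mir-375 took 29.7% in BN-Lx (22.4 to 37.8) and 52.1% in SHR (46.1 to 58.0). Of those of mir-216b and mir-217 together, mir-216b took 10.5% in BN-Lx (5.56 to 17.7) and 27.7% in SHR (21.5 to 34.7). For mir-216a the shares of 3.77% (1.04 to 9.38) and 6.76% (3.29 to 12.1) overlapped. By reads per library total, all 3 member hairpins were at least 2-fold higher in SHR, mir-217 narrowly at 2.01. Of the 207 hairpins with at least 10 reads in a spleen, 38 were (18.4%). The hairpin mir-216a passed this read limit through the SHR spleen alone. With TMM-scaled totals mir-217 was at 1.55, below 2-fold. The count of 3 members thus depends on the read limit and the scale, and no excess over the 18.4% is drawn from it.

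Other hairpins that are associated with pancreas, islets or epithelia were mostly higher in the same spleen as the members. From a list of 13 such hairpins, 12 were in the files, among them the cluster neighbour mir-216b, whose values are given above. The list also holds the islet-expressed mir-7a, mir-184 and the mir-96, mir-182 and mir-183 cluster, and the epithelial mir-200 family with mir-141 and mir-429. In spleen, 8 of them had at least 10 reads in a library, and 6 were at least 2-fold higher in SHR, beside the 38 of 207 hairpins in all (18.4%). The 6 include mir-216b. Since 10 reads in either library sufficed, mir-141 entered this count through the SHR spleen alone. In BN-Lx and SHR, respectively, the hairpin mir-141 had 7 and 37 reads (9.49 and 74.4 RPM), mir-200a had 98 and 171 (132.8 and 344 RPM) and mir-7a-2 had 214.5 and 470 estimated reads (291 and 946 RPM). The exceptions were mir-200c, at 44.7 RPM in BN-Lx and 38.2 RPM in SHR, and mir-7a-1, at 1081 and 1660 RPM. The 5p reads of mir-7a are divided between mir-7a-1 and mir-7a-2, whose SHR to BN-Lx ratios were 1.54 and 3.25. The place of mir-7a-2 among the 6 thus rests on counting these hairpins apart. The islet hairpin mir-184 had 0 reads in both spleens. The summed level of the list was 1656 RPM in the BN-Lx spleen and 3402 RPM in the SHR spleen, which is within its range of 677 to 34534 RPM in the other libraries, where the SHR kidney was highest. In the comparison of spleen with the mean of the other tissues, 5 of the 21 arms of the list were higher and 0 lower, beside 85 (12.4%) higher and 47 lower of all 687 arms. Of the 5, 3 belong to mir-7a, whose 5p reads are divided between its hairpins, and mir-216b-5p is another. The median log2 difference of the list was -0.31, beside -0.30 for all arms. The part of other cells in the spleen values was not tested.

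In brain the direction was the opposite for the cluster. The BN-Lx brain held 17 mir-217-5p reads and 18 mir-216b-5p reads, and the SHR brain 0 and 2. The SHR to BN-Lx ratio was at most 0.218 for mir-217-5p, from the limit of 3 reads, and 0.138 for mir-216b-5p (0.0155 to 0.574). Of the list of pancreas-associated hairpins, 9 of the 11 with at least 10 reads in a brain library were at least 2-fold higher in BN-Lx, beside 30 of all 269 hairpins (11.2%). The 9 include mir-216b. The exceptions were mir-7a-1, at 3590 RPM in BN-Lx and 2277 RPM in SHR, and mir-7a-2, at 1428 and 1246 RPM. Since 10 reads in either library sufficed, hairpins such as mir-96, mir-141 and mir-429 entered this count through the BN-Lx brain alone. The hairpin mir-200a had 1532 reads in the BN-Lx brain (1439 RPM) and 35 in the SHR brain (40.7 RPM). The hairpin mir-182 had 720 and 27 reads (676 and 31.4 RPM), and mir-429 had 112 and 0. These hairpins come from few clusters and are not independent of each other. The arm mir-375-3p was not lower in SHR, with 5.63 RPM in the BN-Lx and 13.9 RPM in the SHR brain (ratio 2.48, 0.860 to 8.04, an interval that includes equal levels). What part other cells had in the BN-Lx brain library was not tested.

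**Figure D2:**
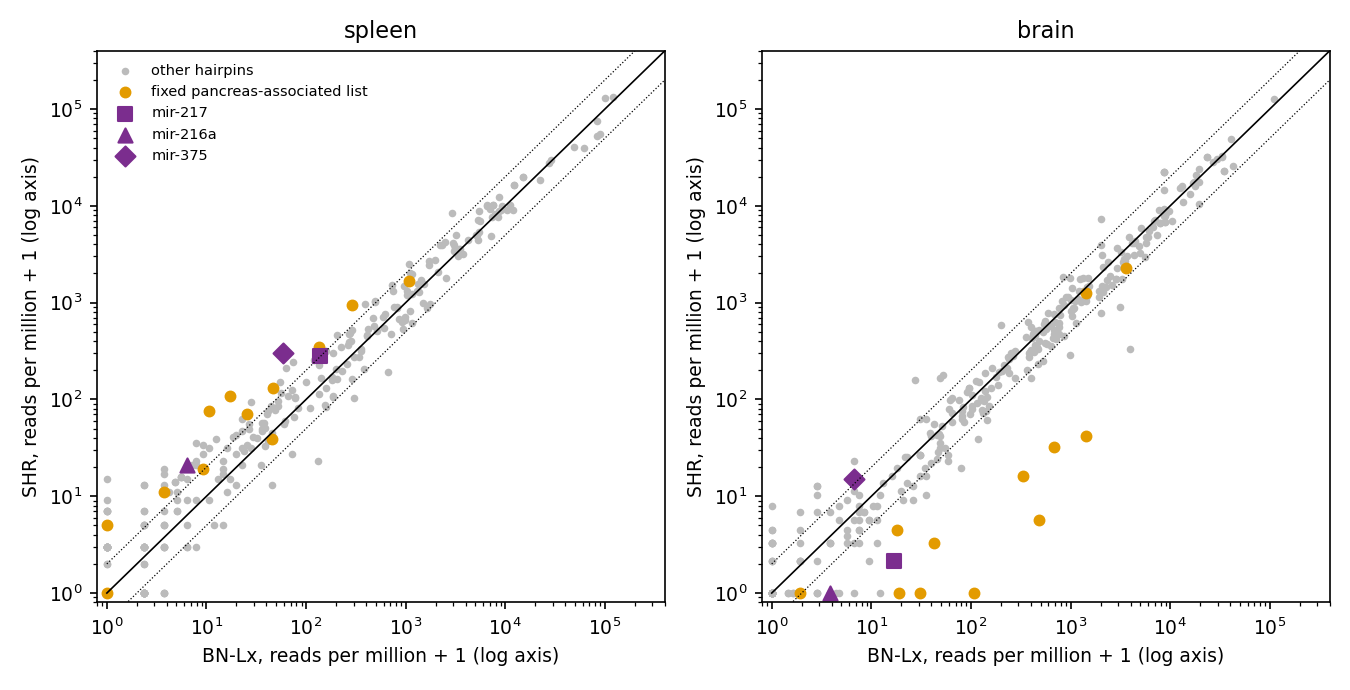
RPM plus 1 (log axes) of each hairpin in the BN-Lx library and the SHR library of spleen and of brain, with the line of equal level, dotted lines at 2-fold, the fixed list of pancreas-associated hairpins in orange and the members in purple. In spleen the members lie on the SHR side. In brain 9 of the list's hairpins lie beyond the 2-fold line on the BN-Lx side, mir-217 and mir-216a also lie on the BN-Lx side, and mir-375 lies on the SHR side.

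The arms whose pattern was most like that of the members were found by Pearson's r of log2(RPM + 1) over the 12 libraries, among 550 arms with at least 10 reads. This is a description, since the libraries share animals and depth. For mir-217-5p, the spleen values that chose it also enter the correlation, so arms high mainly in spleen rank near the top by construction. For mir-217-5p the most alike was mir-216b-5p (r = 0.91), its cluster neighbour. Outside the cluster came the arms mir-130a-as-3p (0.90), mir-150-3p (0.87), mir-532-5p (0.82), mir-374-3p (0.81) and mir-17-2-3p (0.79). Of these, mir-150 is known from lymphocytes. The arms mir-130a-as-3p and mir-374-3p held only 11 and 16 reads over the 12 libraries. The arm mir-375-3p ranked 83 for mir-217-5p, at r = 0.38. For mir-375-3p itself the most alike were mir-32-5p (0.85), mir-32-3p (0.74), mir-106b-5p (0.74), mir-20a-5p (0.71) and mir-20b-3p (0.69). The arm mir-32-3p held only 22 reads over the 12 libraries. The 5 arms named for mir-217-5p and the 5 named for mir-375-3p did not overlap. Lists this short among 550 arms would share few arms in any case, so nothing is drawn from it.

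The ends of the reads were compared with the mature sequences, since start positions set the seed. Over all 16 libraries, 241 of 259 mir-217-5p reads (93.1%, 89.2 to 95.8) and 1043 of 1103 mir-375-3p reads (94.6%, 93.1 to 95.8) began at the RefSeq start, and all 8 mir-216a-5p reads and all 78 mir-216b-5p reads did. The seed was therefore that printed above in most reads. The reads that began elsewhere were shifted upstream by 1 base in mir-217-5p, in all 18 cases, and mostly downstream in mir-375-3p, in 55 of 60.

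The 3′ ends of mir-217-5p varied, and 59.8% of its 259 reads matched RefSeq at both ends, beside 59.0% of 78 mir-216b-5p reads and 91.3% of 1103 mir-375-3p reads. The forms with the most reads at the RefSeq start are shown because they differ between the spleens, again with the seed in capitals.
mir-217-5p, 22 nt: uACUGCAUcaggaacugacugg
mir-217-5p, 23 nt: uACUGCAUcaggaacugacugga
mir-217-5p, 24 nt: uACUGCAUcaggaacugacuggau
mir-217-5p, 20 nt: uACUGCAUcaggaacugacu
Longer forms made up 35 of 101 reads in the BN-Lx spleen (34.7%, 25.5 to 44.8) and 14 of 135 in the SHR spleen (10.4%, 5.79 to 16.8). Only perfect matches were kept in the files, so added bases that do not match the hairpin are not seen. This comparison was chosen after the values were seen. Among 162 arms with at least 50 reads in each spleen, 2 had a gap in the share of longer reads that was at least as large towards BN-Lx, mir-217-5p included, and the median gap was 0. In mir-216b-5p, shorter forms made up 1 of 11 reads in the BN-Lx spleen (9.09%, 0.230 to 41.3) and 22 of 47 in the SHR spleen (46.8%, 32.1 to 61.9), and these intervals overlapped. The arm mir-375-3p ended almost uniformly, with 0 longer reads in either spleen.

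**Figure D3:**
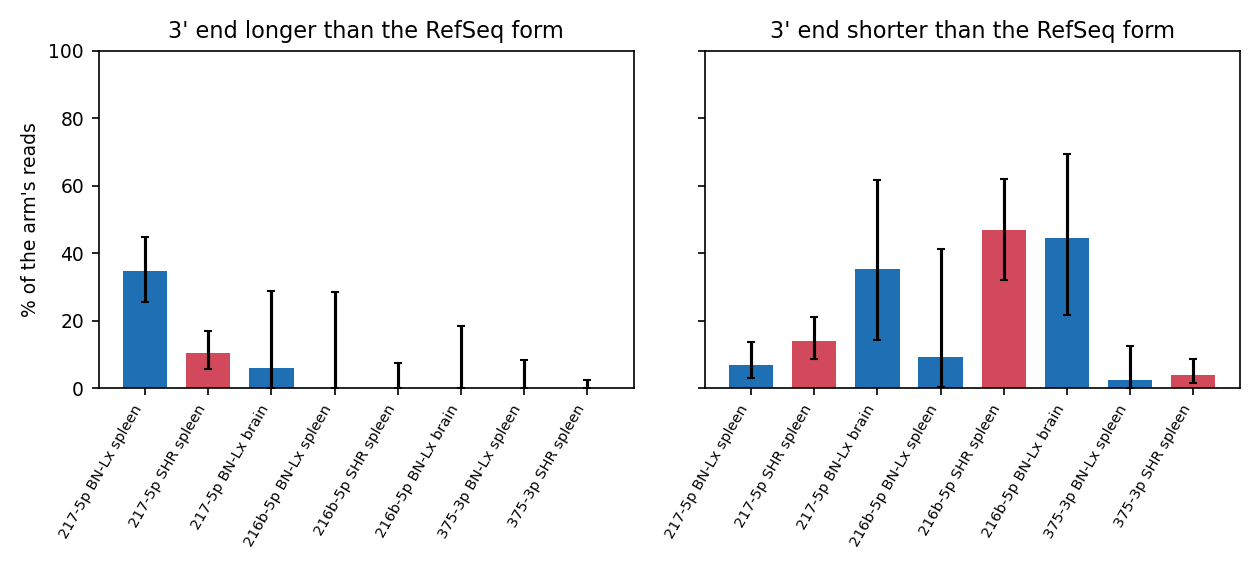
Share of reads that begin at the RefSeq start and end beyond or before its 3′ end, in % of the arm's reads, for mir-217-5p, mir-216b-5p and mir-375-3p in the spleens and, for the cluster, the BN-Lx brain (BN-Lx blue, SHR red, exact 95% intervals). Longer mir-217-5p reads reach 34.7% in the BN-Lx spleen and 10.4% in the SHR spleen, and mir-375-3p has 0 longer reads.

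The livers allow a comparison of the strains with 3 rats each. In RPM, mir-375-3p had levels of 34.2, 67.9 and 6.00 in BN-Lx and of 43.9, 79.5 and 136 in SHR (replicates 1 to 3). At each of the 3 replicate numbers the SHR liver was higher, but the labels state no pairing and the groups overlapped. The means were 36.0 ± 31.0 RPM in BN-Lx and 86.6 ± 46.6 RPM in SHR (SD, n = 3), and an exact two-sided permutation test gave p = 0.2, where the smallest p that 3 against 3 allows is 0.1. In the edgeR fit of 550 arms, the log2 difference was 1.37 (SE 0.85, adjusted p = 0.919). That fit called 0 arms between the strains (0%), with 22 arms at an unadjusted p under 0.05, while DESeq2 called 1. For mir-217-5p the further livers gave 2 reads in BN-Lx replicate 2 and 1 in SHR replicate 3, at up to 1.46 RPM, and 0 in the other 4 livers, and mir-216a had 0 reads in all 6. At this depth, 3 reads correspond to between 0.929 and 6.41 RPM.

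**Figure D4:**
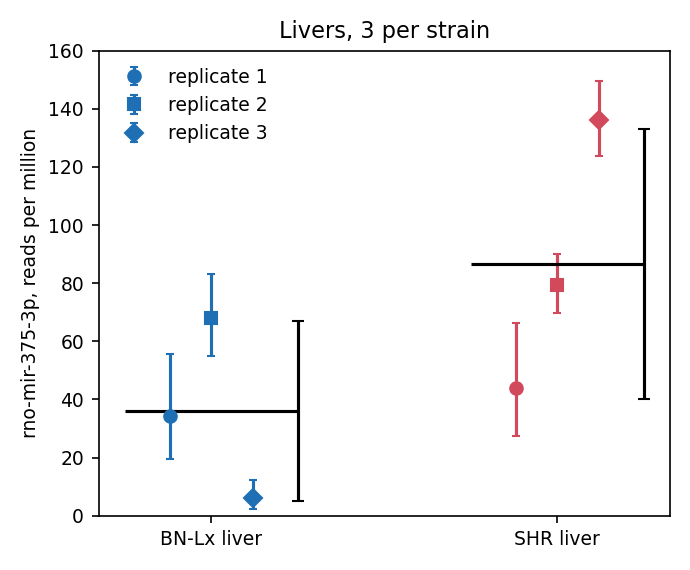
RPM of mir-375-3p in the livers of each strain by replicate number, with exact 95% Poisson intervals, and the mean with SD in black (n = 3). The BN-Lx livers range from 6.00 to 67.9 RPM and the SHR livers from 43.9 to 136 RPM, and the ranges overlap.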

How the data were processed

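For each library the authors deposited expected counts, without normalization: the number of reads at each start and end position on a hairpin, with reads that fit several hairpins divided among them, hence estimated counts. They sequenced on SOLiD, trimmed the linker, remapped the reads with SHRiMP to pre-miRNA hairpins (genome RGSC3.4, names from miRBase) and kept perfect matches. The files name no arms, so reads within 20 nt of a hairpin's most common read midpoint were counted to the arm of that midpoint and the others to the opposite arm. Counts were rounded for edgeR 4.0.16 (TMM, at least 1 read over the libraries fitted, terms tissue and strain in the six-tissue set, strain alone in the livers) and DESeq2 1.42.0 in R 4.3.3. Tests are two-sided. Tables were made in Python 3.11.15 with numpy 2.4.6, pandas 2.3.3 and scipy 1.17.1. The fits were also run on simulated counts, which had a smaller spread than these libraries and no changes in arms as low as those of mir-216a.

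The named arms are the member and mir-216b arms and, for mir-217-5p and mir-375-3p, the 5 most correlated other arms. Members and lists were chosen with earlier results of these data known. Of the spleen and blood list, mir-155 was not matched in the files, nor was mir-148a of the pancreas list. Livers of equal replicate number deviated together from the means of their strains (r = 0.66, 0.58 and 0.30 over 271 arms), so a block for that number was fitted as an alternative. The labels state no pairing of livers between strains. The replicate 1 livers also belong to the shallower six-tissue set, which cannot be told apart from a pairing. The main fit and the permutation test were unpaired. Alternatives changed the tool, scaling, filter, arm assignment, libraries, rule or read length 1 at a time.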

Additional observations from a re-analysis of the deposited data

Results flagged for a closer look

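The strain difference of mir-217-5p ran in opposite directions in 2 tissues. The SHR to BN-Lx ratio was at most 0.218 in brain and 1.98 in spleen. With 1 library per strain and tissue, the difference between the tissues was not tested.

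The strain ratio of mir-375-3p lay on different sides of 1. The SHR to BN-Lx ratio was 0.597 in kidney (exact 95% interval 0.327 to 1.07), and it was 5.30 in spleen, 2.48 in brain and 1.28 in liver. In testis, with 0 reads in BN-Lx, its exact 95% lower limit was 4.06. The intervals in kidney, brain (0.860 to 8.04) and liver (0.644 to 2.62) include equal levels, while that in spleen (3.74 to 7.66) does not, and the difference between the tissues was not tested.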

How the results depend on the processing

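The number of arms higher in spleen than the mean of the other tissues (85) ranged from 37 to 104 when a library was left out, and the number lower (47) from 11 to 53, with the lowest counts without the BN-Lx spleen. DESeq2 called 72 arms lower. Without the SHR spleen 45 arms were higher and 23 lower. The number higher than each other tissue (17) was 11 with DESeq2, 11 with RLE factors, 8 with total reads, 10 with the outlier-corrected mean and from 3 to 18 when a library was left out. The call of mir-375-3p against the mean was lost without the SHR spleen (adjusted p = 0.130, edgeR) and held in the other 17 alternatives, whose adjusted p ranged from 9.95e-09 to 0.0209 and whose log2 difference ranged from 3.13 to 5.50, the highest without the SHR testis. Without the BN-Lx kidney mir-375-3p was called higher in spleen than in 3 tissues, against 2. Neither mir-216a arm was called in any (lowest adjusted p 0.0633 for the 5p and 0.0811 for the 3p arm, edgeR), DESeq2 gave them no adjusted p, and filterByExpr removed them. The log2 difference of mir-375-5p (0.62) was -0.22 with DESeq2 and ranged from -1.40 to 2.06 when a library was left out.

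The 5-fold rule gave 21 arms at 3-fold, 7 at 10-fold, 6 with at least 10 reads in each strain, 22 in BN-Lx alone, 25 in SHR alone and 4 hairpins with arms summed, against 13. Arms taken from the middle of the hairpin, a setting added after the data were seen, gave 13. In the livers, DESeq2 called 1 arm and edgeR from 0 to 7 when a liver was left out, against 0. A block for the replicate number also gave 0 calls and a log2 difference of 1.47 for mir-375-3p, and it changed no other call. The log2 difference of mir-217-5p in liver (-1.59) ranged from -2.89 to 1.60 when a liver was left out. The causes were not tested. The spleen strain ratios and 5p shares stayed within their intervals.

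Depth limits the testis libraries and mir-216a most, which has 17 reads in all.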
